A study of Mus musculus with 15 samples.

Results

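The 10 genes examined here encode transcription factors of the AP-1 family or other immediate early factors: Jun, Junb, Jund, Fos, Fosb, Fosl2, Atf3, Batf, Egr1 and Nr4a1. They were picked by gene symbol from the 24690 gene entries of each deposited table, and all 10 were found in all 15 libraries. The choice was made with measurements of these libraries already known, and which measurements led to it was not recorded. Their levels and differences are therefore given as a description. An adjusted p-value printed for one of them says only where that gene stood among all genes tested. Permutation p-values of members are unadjusted and are descriptions too.

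The libraries were RNA-seq libraries of C57BL/6 mouse type 2 innate lymphoid cells (ILC2s) sorted from the gut lamina propria (LP) and of ILC2 precursors (ILC2p) sorted from bone marrow (BM). Every donor mouse carried floxed Tgfbr2 alleles (Tgfbr2f/f), the gene of the TGF-β type II receptor, and ER-Cre, a tamoxifen-activated recombinase. WT groups were treated with oil and Tgfbr2-/- groups with tamoxifen on several consecutive days, so all WT cells held the same floxed alleles and the same Cre, and tamoxifen and the deletion cannot be told apart. The groups were LP WT (n = 4), LP Tgfbr2-/- (n = 3), BM WT (n = 4) and BM Tgfbr2-/- (n = 4). Each cell type was collected in 2 experiments, with 2 libraries of a genotype in each, apart from 1 LP Tgfbr2-/- library in experiment 2. LP ILC2s were sorted as CD45+Lin-CD127+Sca-1+CD25+KLRG1+ cells from the treated mice themselves. BM ILC2p were sorted as CD45.2+Lin-CD127+α4β7+CD25+ cells from irradiated CD45.1 hosts that had received treated marrow mixed with untreated CD45.1 marrow. ER-Cre is not restricted to one cell type, the labels give no age, and the labels do not say whether each library came from a separate mouse or a pool, so p-values measure only the spread between these samples. The experiments are numbered within each cell type, and none held both. Tissue, isolation method, chimeric host and experiment all changed together with the cell type, and these cannot be told apart in any LP against BM difference. Each side of that comparison is 2 experiments, and libraries of 1 experiment were counted there as separate samples.

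Depth was 12167066 to 32114265 counts a library in the LP and 10957021 to 35961215 in the BM. Counts over the whole Tgfbr2 transcript do not check the deletion, because only part of the gene is lost. Tgfbr2 stood at 172.1, 261.9, 149.7 and 207.1 counts scaled to library size (CPM) in LP WT, at 206.2, 184.1 and 96.57 CPM in LP Tgfbr2-/-, at 0.714, 233.0, 107.4 and 188.4 CPM in BM WT and at 87.37, 130.1, 30.91 and 218.8 CPM in BM Tgfbr2-/-. The genotypes overlapped in both cell types, and genotype is used as labelled. The BM libraries also missed many transcripts outright. Of the genes that reached 50 CPM or more as the median of all other libraries of the same cell type, the share under 1 CPM was 14.2% and 3.66% in the first and second BM WT libraries of experiment 1, 1.75% and 1.56% in those of experiment 2, 12.1% and 13.8% in the BM Tgfbr2-/- libraries of experiment 1 and 1.83% and 8.33% in those of experiment 2. In LP libraries this share was at most 0.0285%. One BM WT library, the first of experiment 1, held the 0.714 CPM of Tgfbr2 (8 counts) and also 2 counts of Atf3.

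AP-1 is a dimer of basic leucine zipper proteins. Jun, Junb and Jund pair with each other or with Fos, Fosb and Fosl2, while Atf3 and Batf are related zipper proteins that join Jun partners. Egr1 is a zinc finger factor and Nr4a1 an orphan nuclear receptor, and both share with the Fos and Jun genes the property of being transcribed within minutes of a stimulus, from factors already present in the cell, mostly downstream of MAP kinases and calcium. In lymphocytes these factors take part in the transcription of cytokine genes, and many of their messages are also known to be induced while tissue is digested and cells are sorted.

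Promoter sequence, the 250 bases before the annotated start in RefSeq (build GRCm38.p6), was taken for 9 of the 10 members. The promoter of Egr1 was left out. It is shown for Nr4a1, the member that differed most between LP and BM, and for Fos and Jun, which differed less or in the other direction. In mm9, the build of the counts, Nr4a1 lies at chr15:101097277-101105223, Fos at chr12:86814840-86818223, Jun at chr4:94715725-94718913, Junb at chr8:87500811-87502617, Jund at chr8:73221638-73224515, Fosb at chr7:19888070-19895394, Fosl2 at chr5:32438845-32460204, Batf at chr12:87027619-87050037 and Atf3 at chr1:192994175-193007219 (GENCODE, all protein coding). Coordinates on the 2 builds are kept apart. The promoter of Nr4a1 is on the plus strand at chr15:101266596-101266845, that of Fos on the plus strand at chr12:85473640-85473889 and that of Jun on the minus strand at chr4:95052223-95052472. Sequences run 5′ to 3′, and capitals mark the 5-base core of the cyclic AMP response element (CRE), TGACG or its complement CGTCA.
Nr4a1: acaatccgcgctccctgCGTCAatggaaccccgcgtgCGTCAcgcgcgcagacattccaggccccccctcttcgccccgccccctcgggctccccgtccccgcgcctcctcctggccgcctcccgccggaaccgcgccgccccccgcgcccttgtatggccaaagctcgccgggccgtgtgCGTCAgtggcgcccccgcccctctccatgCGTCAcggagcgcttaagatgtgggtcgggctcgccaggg
Fos: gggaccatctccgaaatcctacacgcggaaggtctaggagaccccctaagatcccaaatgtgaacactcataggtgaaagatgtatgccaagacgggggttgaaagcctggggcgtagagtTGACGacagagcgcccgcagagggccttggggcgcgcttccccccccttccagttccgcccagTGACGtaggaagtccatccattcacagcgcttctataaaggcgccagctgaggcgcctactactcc
Jun: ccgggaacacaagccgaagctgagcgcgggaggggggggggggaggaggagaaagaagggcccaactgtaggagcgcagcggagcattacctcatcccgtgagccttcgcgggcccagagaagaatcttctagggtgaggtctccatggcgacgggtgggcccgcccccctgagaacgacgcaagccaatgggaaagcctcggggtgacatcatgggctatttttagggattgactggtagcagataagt
The windows of 300 bases (250 before to 50 after the start) were searched on both strands. The core was found in 6 of the 9 members: 4 times in Nr4a1, 2 times in Fos, once each in Junb, Fosb, Atf3 and Batf, and not in Jun, Jund or Fosl2. Among all 32851 RefSeq promoters of this length, 20.8% held at least 1 core and 0.231% held 4 or more. None of the 9 windows, which leave out Egr1, held the full CRE TGACGTCA (1.79% of all promoters), which contains the core on both strands. Nor did any of them hold the AP-1 site TGANTCA (7.81%) or the serum response element (1.63%). These are letter matches in short windows and say nothing of binding. The core was added to the search after the sequences had been read.

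Levels were compared between genes as RPKM, the deposited unit that divides reads by transcript length and library size. Junb was the highest of the 10 in all 4 groups, at 11140 ± 2473 RPKM (SD, n = 4) in LP WT and 10260 ± 1544 RPKM (n = 4) in BM WT, and it ranked between 1 and 4 among all entries in each WT library. In LP WT it was followed by Nr4a1 at 5847 ± 241, Fos at 4997 ± 534, Jun at 1926 ± 350 and Fosb at 670 ± 216 RPKM. Nr4a1 and Fos overlapped in that order. Batf came next at 275 ± 49.99 RPKM, above every Egr1 (171 ± 28.8) and Jund (153 ± 44.7 RPKM) value but overlapping Atf3 (189 ± 68.8 RPKM). Atf3, Egr1 and Jund could not be ordered beyond their spread, and Fosl2 was last at 54.2 ± 14.4 RPKM.

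In BM WT the order was different. Jun at 6872 ± 429 RPKM and Fos at 5541 ± 261 RPKM followed Junb, and Jund (1035 ± 339) and Egr1 (611 ± 124 RPKM) stood above Fosb (428 ± 70.6) and Batf (238 ± 149 RPKM). Neighbours from Jund to Batf overlapped in turn. Nr4a1 was at 99.9 ± 61.9, Atf3 at 11.2 ± 10.4 and Fosl2 at 2.14 ± 1.49 RPKM, the lowest of the 10. Nr4a1, ranked between 6 and 8 among all entries in LP WT libraries, ranked between 520 and 3769 in BM WT libraries. Of the summed mean RPKM of the 10 genes, Nr4a1 made up 23.0% in LP WT and 0.398% in BM WT, and Jun 7.58% and 27.4%.

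In Tgfbr2-/- cells the LP order was Junb 11650 ± 1898, Fos 4799 ± 1121, Nr4a1 4663 ± 508 and Jun 1520 ± 512 RPKM (n = 3), and Fosb followed at 588 ± 181 RPKM. Fos and Nr4a1 overlapped in that order. In BM Tgfbr2-/- libraries Junb stood at 3942 ± 693, Jun at 2679 ± 288 and Fos at 2623 ± 316 RPKM (n = 4), with Jun and Fos overlapping, and Jund followed at 237 ± 90.5 RPKM. The 3 leading genes were thus the same as in BM WT, each at a lower RPKM.

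**Figure D1:**
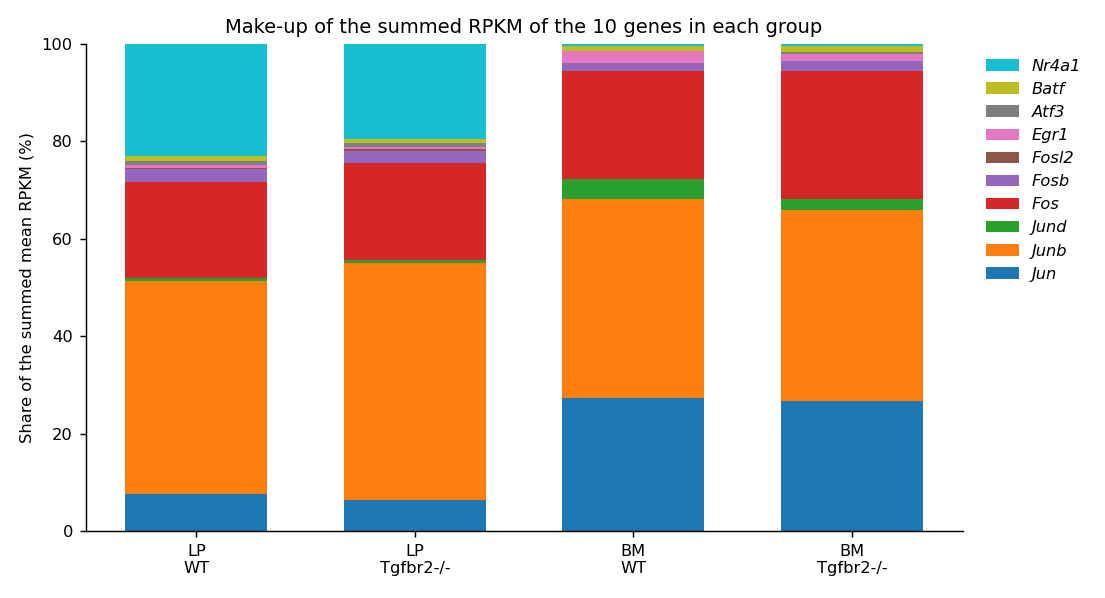
Share of the summed mean RPKM of the 10 genes (percent, y axis) that each gene made up in LP WT, LP Tgfbr2-/-, BM WT and BM Tgfbr2-/- cells (one stacked bar a group). Nr4a1 takes 23.0% of the LP WT bar and 0.398% of the BM WT bar, and Jun 7.58% and 27.4%.

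The first comparison set LP ILC2s against BM ILC2p in WT cells, the mature cell against its precursor. Nr4a1, Fosl2 and Atf3 were higher in LP ILC2s, Jun, Jund and Egr1 were higher in BM ILC2p, and Fos, Junb, Fosb and Batf did not pass the test. Calls are from edgeR's quasi-likelihood test on TMM-scaled counts, with Benjamini-Hochberg adjusted p under 0.1 over all genes tested and a fold change over 1.5, the study's own thresholds. With 6 of the 10 members called, the share of all genes called was 2.36% (302 of 12806), with 211 (1.65%) higher and 91 (0.711%) lower in LP.

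Nr4a1 was at 14269, 14651, 12583 and 11875 CPM in the LP WT libraries and at 59.9, 299, 344 and 154 CPM in the BM WT libraries. The ranges lay far apart, and the log2 fold change was 5.96 ± 0.72 (SE, adjusted p = 0.000211). Fosl2, a Fos protein that is made later and lasts longer than Fos, was at 291, 418, 266 and 202 CPM in LP WT and 3.12, 10.3, 9.59 and 19.6 CPM in BM WT, a log2 fold change of 4.78 ± 0.65 (adjusted p = 0.000685). Atf3, a stress-induced zipper protein, was at 435, 503, 181 and 282 CPM in LP WT and 0.179, 41.9, 16.2 and 16.5 CPM in BM WT. Its log2 fold change was 4.23 ± 0.94 (adjusted p = 0.0397), and it was no longer called when the first BM WT library of experiment 2 was left out (4.16). The 0.179 CPM is 2 counts in the library with the most missing transcripts.

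Jun was at 7495, 4585, 5606 and 4990.3 CPM in LP WT and 24094, 17702, 20480.4 and 16509.6 CPM in BM WT, a log2 fold change of -1.80 ± 0.20 (adjusted p = 9.2e-05). Jund, the Jun protein that is usually made without a stimulus, was at 606, 326, 417 and 284 CPM in LP WT and 4209, 2629, 2718 and 1366 CPM in BM WT (-2.74 ± 0.36, adjusted p = 0.000546). Egr1 was at 583, 381, 467 and 502 CPM in LP WT and 2382, 1566, 1759 and 1114 CPM in BM WT (-1.82 ± 0.33, adjusted p = 0.0091). For these 3 genes every LP library was below every BM library, as for 3.76% of all genes, and for Nr4a1, Fosl2 and Atf3 every LP library was above, as for 7.05%.

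Fos, Junb and Batf each differed by less than their SE. Fos stood at 9543, 9699, 8808 and 10296 CPM in LP WT and 12293, 9979, 10597 and 8743 CPM in BM WT, a log2 fold change of -0.12 ± 0.14 (adjusted p = 0.958). Junb, a Jun protein that often counters Jun itself, was at 25595, 22033, 15731 and 13133 CPM in LP WT and 23127, 15030.4, 17643 and 12592 CPM in BM WT (0.16 ± 0.23, adjusted p = 0.975). The groups overlapped for Fos and Junb. Fosb was at 2937, 3297, 1383 and 1844 CPM in LP WT and 1374, 1639, 1366 and 1337 CPM in BM WT (0.73 ± 0.32, adjusted p = 0.322), and Batf, which pairs with Jun proteins beside IRF4, at 311, 238, 173 and 202 CPM and 433, 122, 138 and 116 CPM (0.19 ± 0.45, adjusted p = 0.990). Both overlapped as well, and for Batf the single high BM library was the first of experiment 1.

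Markers of other cells differed between the tissues as well. Of 11 neutrophil and monocyte markers tested, 9 were called lower in LP WT than in BM WT, with summed levels of 0.0468 to 129.8 CPM and 774.9 to 1557 CPM. Of 6 basophil and mast cell markers, 3 were called lower in LP WT, with sums of 236.4 to 493.3 CPM in LP WT and 216.9 to 310.4 CPM in BM WT. Nearly all of the LP WT sum was Kit, the stem cell factor receptor (487.8, 333.1, 234.6 and 291.3 CPM), with 4 to 6 of the 7 genes in the tables at 0. Of the other lists, none of 7 T cell and 7 epithelial markers, 1 of 5 B cell markers (higher in LP WT) and 1 of 3 erythroid markers (lower) were called. Only 2 of the 11 neutrophil and monocyte and 1 of the 6 basophil and mast cell markers passed the filter on low values among the LP libraries alone, and 1 of the 5 B cell markers among the BM libraries, so most of these genes were tested through the tissue where they were high. Their part in the differences of the members between LP and BM was not tested.

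The same comparison in Tgfbr2-/- cells called 11.7% of all genes (1492 of 12806, 8.21% higher and 3.44% lower in LP) and 6 of the 10 members. Nr4a1 (log2 fold change 6.52), Fosl2 (4.13), Junb (1.31), Fosb (1.25) and Fos (0.60) were higher in LP ILC2s and Jun (-1.10) was lower, whereas Atf3 (1.51), Batf (0.57), Egr1 (-0.41) and Jund (-0.90) were not called. Fos was no longer called without any one of 4 Tgfbr2-/- libraries (0.40 to 0.58), and Fosb without either LP Tgfbr2-/- library of experiment 1 (1.08 and 1.14). Atf3 was called without the first BM WT library of experiment 1 (1.51). The call was also lost for Fos by DESeq2 (0.42) and without a filter (0.52). It was lost for Jun under upper quartile scaling (-0.58, with the median of all genes at 0.44 beside -0.04), and Jund was called with experiments as blocks (-0.86). Its BM libraries carried the neutrophil and basophil transcripts described further on, and 10 of 11 neutrophil and monocyte markers and 5 of 6 basophil and mast cell markers were called lower in LP Tgfbr2-/-. Called higher there were 3 of 7 epithelial markers (Krt18, Cdh1 and Muc2), with sums of 33.84 to 965.8 CPM in LP Tgfbr2-/- and 0.8089 to 61.68 CPM in BM Tgfbr2-/-, and 2 of 7 T cell markers (Cd4 and Cd3g), with sums of 158.0 to 246.0 CPM and 35.05 to 108.8 CPM. These 5 genes passed the filter through the LP, and most of the neutrophil and basophil markers through the BM. Of 3 erythroid markers, Klf1 was called lower (-9.01) and was also tested through the BM. Erythroid sums were 1.092 to 3.729 CPM in LP Tgfbr2-/- and 4.811 to 142.0 CPM in BM Tgfbr2-/-. None of 5 B cell markers was called. All these counts are descriptions. The part of all these markers in the members' values was not tested.

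**Figure D2:**
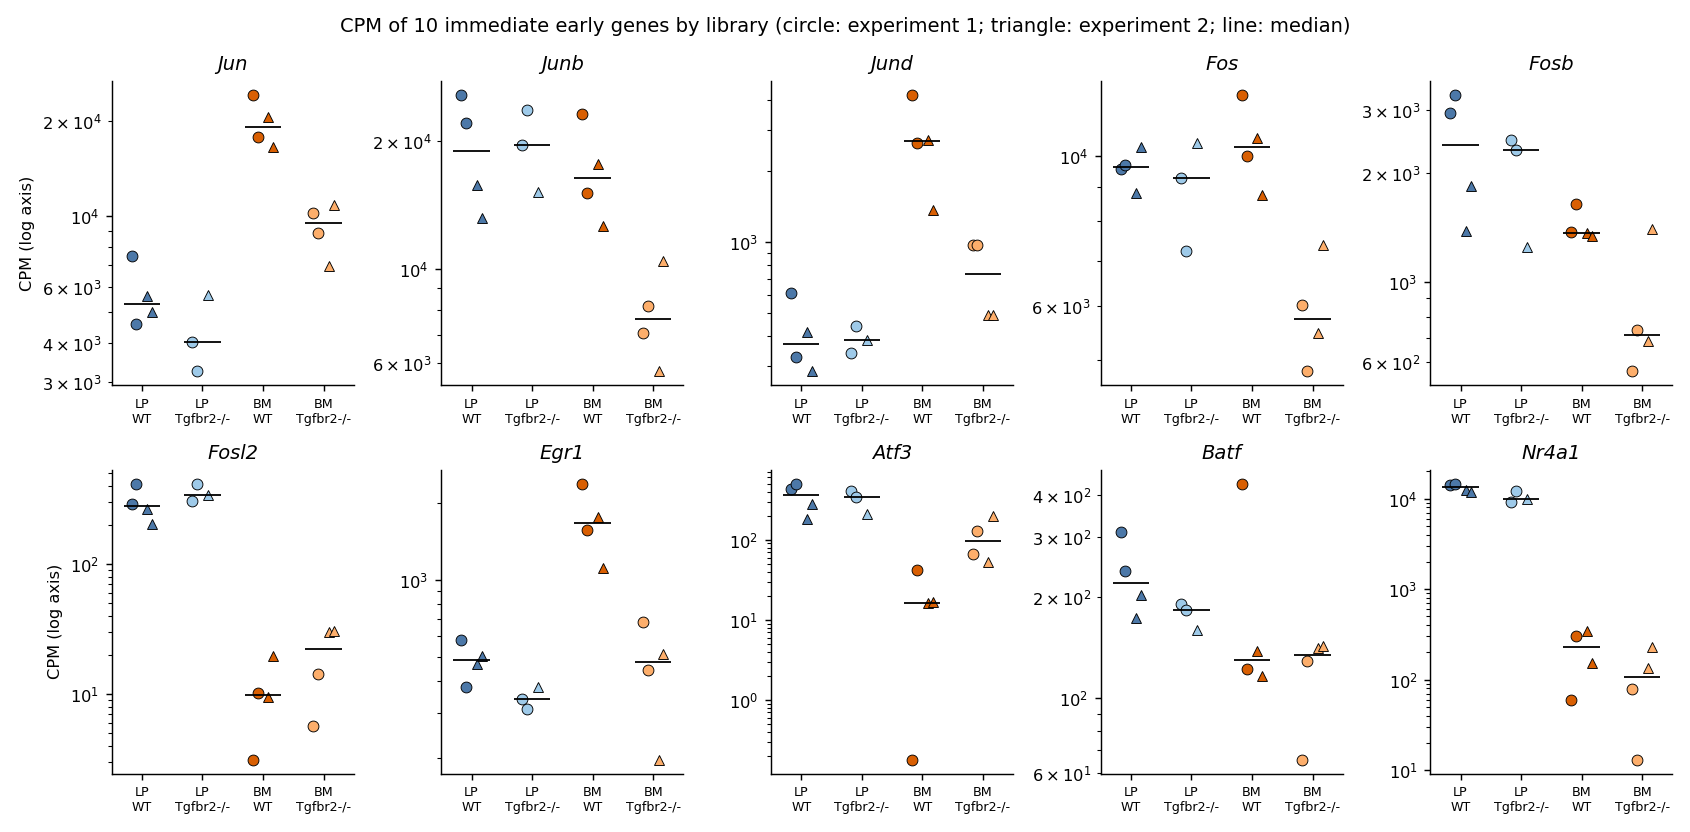
CPM of each of the 10 genes (log y axis) in every library, by group (x axis), with circles for experiment 1, triangles for experiment 2 and a line at the group median. Nr4a1, Fosl2 and Atf3 sit higher in LP WT than in BM WT, Jun, Jund and Egr1 sit lower, and in BM the Tgfbr2-/- libraries lie below the WT libraries for Jun, Junb, Jund, Fos and Egr1.

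**Figure D3:**
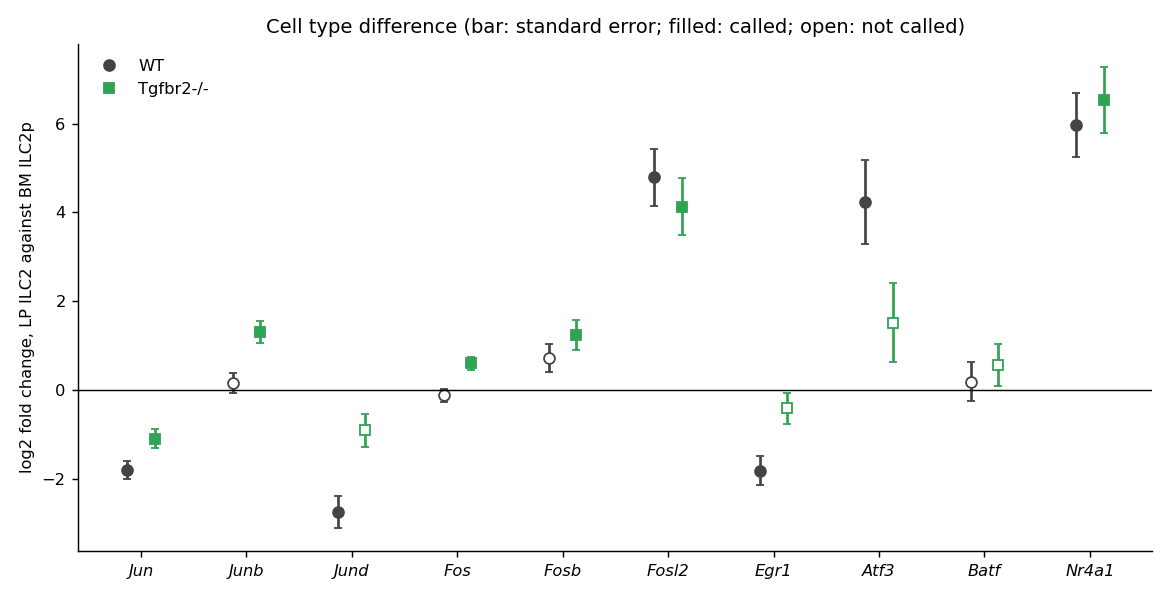
Log2 fold change of LP ILC2s against BM ILC2p (y axis) for each gene, in WT (circles) and Tgfbr2-/- cells (squares), with bars for 1 standard error and filled symbols where the gene was called. Nr4a1 has the largest difference of the 10 in both genotypes, 5.96 and 6.52.

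In BM ILC2p, Tgfbr2-/- libraries held less of 5 members: Jun, Junb, Jund, Fos and Egr1. Across all genes, 3.47% were called (321 of 9242), 241 (2.61%) higher and 80 (0.866%) lower. The number lower was 103 without the first BM WT library of experiment 1, between 18 and 53 without any one of the other 7 BM libraries, and 20 with the replicate number as a block. The median log2 fold change of the 10 members was -0.99, against -0.10 for all genes tested.

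Jun was at 24094, 17702, 20480.4 and 16509.6 CPM in BM WT and 10230.4, 8851, 6982 and 10846 CPM in BM Tgfbr2-/-, a log2 fold change of -1.13 ± 0.16 (SE, edgeR adjusted p = 0.00485). Junb was at 23127, 15030.4, 17643 and 12592 CPM in BM WT and 7077, 8187, 5749.6 and 10433 CPM in BM Tgfbr2-/- (-1.15 ± 0.22, adjusted p = 0.0269). Jund fell from 4209, 2629, 2718 and 1366 CPM to 969, 970.2, 491 and 489.8 CPM (-1.97 ± 0.26, adjusted p = 0.0040). All 3 Jun genes were thus lower, with every Tgfbr2-/- library below every WT library.

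Fos was at 12293, 9979, 10597 and 8743 CPM in BM WT and 6012, 4809.8, 5473 and 7382 CPM in BM Tgfbr2-/- (-0.85 ± 0.15, adjusted p = 0.0194). It was not called by DESeq2 (-0.73). Egr1 was at 2382, 1566, 1759 and 1114 CPM in BM WT and 684, 443, 197 and 510.0 CPM in BM Tgfbr2-/- (-1.96 ± 0.34, adjusted p = 0.0203). The genotypes did not overlap for either, as for 3.12% of all genes in this direction, and for all 5 the same held within each experiment, as for 4.85%. Shares of genes without overlap are over the 12806 genes that passed the filter on all 15 libraries. The calls between BM genotypes are over 9242 genes, so the 2 kinds of share have different bases. For Junb the call was lost (-1.06) without the first BM Tgfbr2-/- library of experiment 1.

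The other 5 were not called. Fosb was at 1374, 1639, 1366 and 1337 CPM in BM WT and 566, 736, 687 and 1404 CPM in BM Tgfbr2-/- (-0.82 ± 0.28, adjusted p = 0.272), with the second Tgfbr2-/- library of experiment 2 inside the WT range. Without that library Fosb was called (-1.12), as it was under library size (-1.07) and upper quartile scaling (-1.18) and by limma on RPKM (-1.10 with either pseudocount). These 2 scalings and limma with pseudocounts 1 and 0.1 moved the median of all genes from -0.10 to -0.31, -0.40, -0.42 and -0.57. Relative to it Fosb was at -0.76, -0.78, -0.68 and -0.54, beside -0.73 in the reported fit. Atf3 went the other way, at 66.1, 129, 53.3 and 198 CPM in BM Tgfbr2-/-, above all 4 BM WT libraries, as for 4.72% of all genes, but with a log2 fold change of 2.54 ± 1.33 (adjusted p = 0.675) that did not pass. Nr4a1, at 78.2, 12.96, 135 and 227 CPM (-1.26 ± 0.78, adjusted p = 0.778), Batf, at 65.6, 129, 141 and 143 CPM (-0.70 ± 0.61, adjusted p = 0.891), and Fosl2, at 5.66, 14.3, 30.0 and 30.7 CPM (0.79 ± 1.29, adjusted p = 0.936), overlapped the WT libraries. With 1 library left out the log2 fold change ran from 2.02 to 4.28 for Atf3, -1.61 to -0.50 for Nr4a1, -0.95 to -0.08 for Batf and 0.54 to 1.24 for Fosl2, and none was called. For Jun, Junb, Jund, Fos, Egr1 and Atf3 the unadjusted exact two-sided permutation p within experiments was 0.0556, the smallest this design can give. That value follows from genotypes that do not overlap within either experiment, so it adds nothing to that separation. The share of all genes at this p was not counted. In each experiment alone the direction of the 5 called genes was the same, and none was called with 2 against 2 libraries.

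Transcripts of other cells moved with this difference. Of 12 neutrophil and monocyte markers, 11 were in the tables and tested, and 9 of them were called higher in BM Tgfbr2-/- cells. Their summed level was 774.9, 1557, 911.6 and 1471 CPM in BM WT and 83850, 72940, 71350 and 84470 CPM in BM Tgfbr2-/-, and none of the 11 was at 0 in any BM library. The most abundant in BM WT was Mpo, the myeloperoxidase of granulocytes, at means of 762.3 CPM in BM WT and 8006 CPM in BM Tgfbr2-/-. The most abundant in BM Tgfbr2-/-, S100a8, a calcium-binding protein of neutrophils, was at 59.0, 60.5, 167 and 78.3 CPM in BM WT and 29609.9, 23800.3, 24109.8 and 25692 CPM in BM Tgfbr2-/-. Ltf (log2 fold change 8.39), S100a9 (8.34), Camp (8.24) and Itgam (8.24) had the largest changes among those called. Basophil and mast cell markers were called higher for 4 of 6, with a summed level of 216.9 to 310.4 CPM in BM WT and 1228 to 2042 CPM in BM Tgfbr2-/-, and Prss34, the most abundant of them in BM Tgfbr2-/-, at 1.98 to 5.15 and 823 to 947 CPM. Cpa3, a mast cell protease and the most abundant of them in BM WT, was at means of 186.3 and 186.9 CPM. Mcpt8, Fcer1a and Gata2 were at means of 0.822, 0.348 and 0.405 CPM in BM WT and 164.7, 101.3 and 133.3 CPM in BM Tgfbr2-/-. These genes were tested mainly through the BM Tgfbr2-/- libraries, so the count of basophil and mast cell markers is a description. According to the methods, lineage-positive cells were excluded from the sort with antibodies that included anti-CD11b, against the product of Itgam, and anti-Gr-1, which marks granulocytes. The part of these transcripts in the difference of the 5 members was not tested.

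Markers of the sorted cell were followed in the same libraries. Of 7 ILC2p markers, Itga4, Itgb7, Il7r and Il2ra encode surface proteins used in the BM sort, and Ly6a, Tcf7 and Zbtb16 were not part of it. Their summed level was 4415, 3409, 3998 and 3361 CPM in BM WT and 1775, 1897, 1748 and 2317 CPM in BM Tgfbr2-/-. One of the 7, Itgb7, an integrin chain, was called lower (-1.05, adjusted p = 0.0832). Not called were Itga4 (means of 375.9 CPM in BM WT and 136.6 CPM in BM Tgfbr2-/-), Il7r (725.9 and 392.9 CPM), Il2ra (613.3 and 273.4 CPM), Ly6a (597.7 and 313.4 CPM), Tcf7, the factor TCF-1 (28.3 and 26.6 CPM), and Zbtb16, the factor PLZF (27.4 and 82.7 CPM). The log2 fold change was below 0 for 6 of the 7, with a median of -0.96. Of 11 ILC2 markers tested, 3 were called lower: Il1rl1, the IL-33 receptor (-1.96), Gata3, the factor that specifies ILC2s (-1.41), and Id2, a factor of all innate lymphoid cells (-0.96). The 10 members together made up 4.81 to 6.20% of all counts in BM WT and 1.94 to 2.56% in BM Tgfbr2-/-. In bulk samples, fewer cells of a type and less RNA per cell cannot be told apart.

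The members were also set against the 7 ILC2p markers. The ratio of Jun to the summed markers was 4.91 to 5.46 in BM WT and 3.99 to 5.76 in BM Tgfbr2-/-, that of Junb 3.75 to 5.24 and 3.29 to 4.50, and that of Fos 2.60 to 2.93 and 2.54 to 3.39. These ranges overlapped. The ratio of Jund was 0.406 to 0.953 in BM WT and 0.211 to 0.546 in BM Tgfbr2-/-, and that of Egr1 0.331 to 0.540 and 0.113 to 0.385. Over both experiments these overlapped too, while within each experiment both Tgfbr2-/- ratios of Jund and of Egr1 were below both WT ratios. For the other 3 genes this differed by experiment. In experiment 2 both Tgfbr2-/- ratios were above both WT ratios for Fos (3.131 and 3.186 beside 2.651 and 2.601). They were below them for Jun in experiment 2 (3.994 and 4.681 beside 5.123 and 4.912) and for Junb in experiment 1 (3.987 and 4.316 beside 5.238 and 4.409). The share of all genes whose ratios to the markers separate in these ways was not counted. The separations of ratios are therefore descriptions, also for Jund and Egr1. When libraries were scaled to the ILC2p markers in place of TMM, a setting chosen after the data were seen, the median of all genes moved from -0.10 to 0.91, and the log2 fold changes were -0.12 for Jun, -0.14 for Junb, 0.16 for Fos, -0.95 for Egr1 and -0.92 for Jund. Of these only Jund was called. Relative to the median of all genes under each scaling, Jun was at -1.03 and -1.03, Fos at -0.75 and -0.75 and Jund at -1.87 and -1.83.

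**Figure D4:**
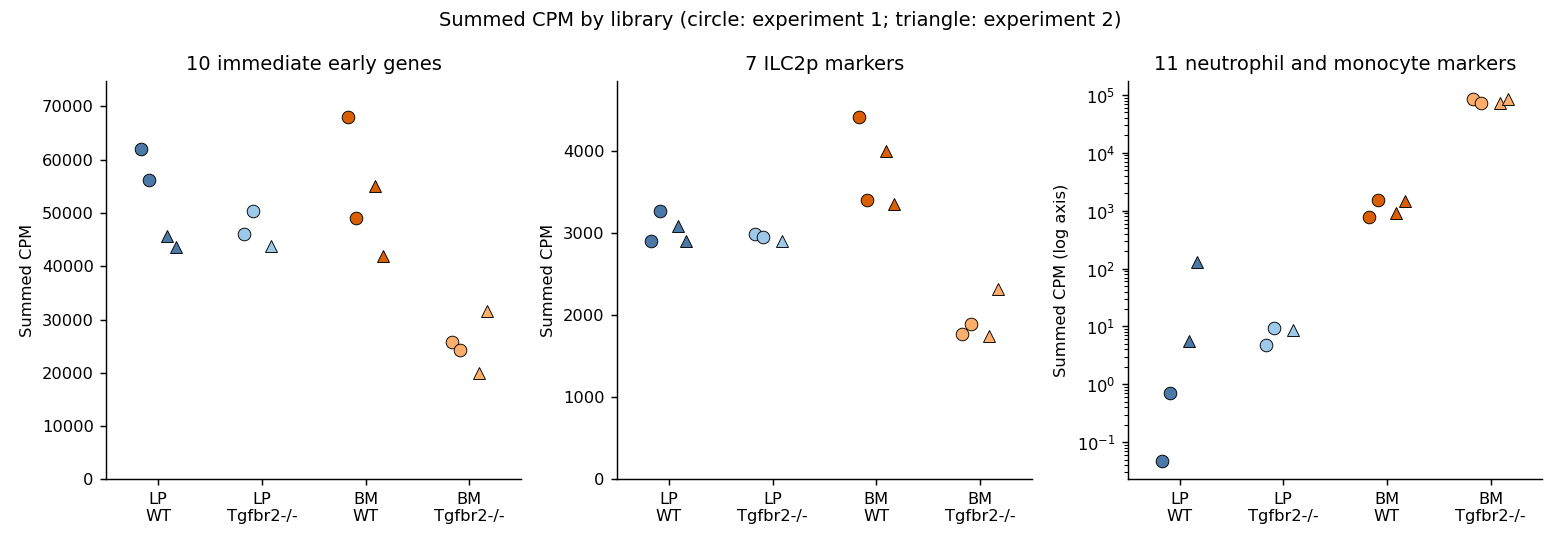
Summed CPM by library (y axes, log in the right panel) of the 10 immediate early genes, the 7 ILC2p markers and the 11 neutrophil and monocyte markers, by group, with circles for experiment 1 and triangles for experiment 2. The 4 BM Tgfbr2-/- libraries are below the 4 BM WT libraries in the first and second panels and above them in the third, at 71350 to 84470 CPM against 774.9 to 1557 CPM.

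In LP ILC2s none of the 10 members was called between Tgfbr2-/- and WT libraries by the same test, nor was any of the 11981 genes tested (0%). At an unadjusted p under 0.05 there were 557 genes by edgeR, and DESeq2 called 338. Fold changes of the members ran from -0.51 to 0.21 on the log2 scale, 9 of the 10 below 0, with a median of -0.34 against -0.01 for all genes. In experiment 2 alone Jun (0.13), Junb (0.10), Jund (0.17) and Fos (0.16) were above 0 as well, and without the first LP WT library of experiment 1 Junb (0.0163) and Jund (0.2003) were.

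Nr4a1 was at 9119, 12268 and 9915 CPM in LP Tgfbr2-/- (n = 3) beside the 11875 to 14651 CPM of LP WT, a log2 fold change of -0.41 ± 0.14 (edgeR adjusted p = 0.898). Egr1 was at 342, 312 and 379 CPM beside 381 to 583 CPM in LP WT (-0.51 ± 0.19, adjusted p = 0.898), the one member with every Tgfbr2-/- library below every WT library, as for 2.21% of all genes (3.08% in the other direction). Fosb was at 2471, 2326 and 1250.1 CPM (-0.40 ± 0.14) and Batf at 190.1, 183 and 159 CPM (-0.46 ± 0.19). For these 4 genes each Tgfbr2-/- library was below the WT libraries of its own experiment, as for 5.27% of all genes. These shares too are over 12806 genes, beside the 11981 tested between LP genotypes. Nr4a1 and Egr1 had an unadjusted exact two-sided permutation p within experiments of 0.0556, the smallest possible here. The share of all genes at this p was not counted.

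The remaining members overlapped between genotypes in the LP. Jun was at 4029, 3250.0 and 5659.9 CPM in LP Tgfbr2-/- (-0.42 ± 0.25), Junb at 19549, 23593 and 15137 CPM (-0.09 ± 0.15) and Jund at 340.1, 443 and 387 CPM (-0.12 ± 0.27). Fos was at 9257, 7225 and 10427 CPM (-0.11 ± 0.15), Fosl2 at 306, 415 and 341 CPM (0.21 ± 0.22) and Atf3 at 407, 342 and 207 CPM (-0.28 ± 0.20). The LP libraries were nearly free of neutrophil and monocyte transcripts, with a summed 0.0468 to 129.8 CPM and 7 to 10 of the 11 genes at 0. Epithelial transcripts were unequal among them, with a summed level of 6.74 to 43.7 CPM in experiment 1 and 227.7 and 421.9 CPM in LP WT and 965.8 CPM in LP Tgfbr2-/- of experiment 2. Their part in the members' values was not tested. The first LP WT library of experiment 1, which held the highest Jun, Junb, Jund, Egr1 and Batf of the 7 LP libraries, also had the highest summed heat shock genes, 12860 CPM beside 3694 to 6518 CPM in the others. The part of heat shock in these values was not tested. The log2 fold change of Jun was -0.12 without that library and -0.77 without the LP Tgfbr2-/- library of experiment 2, and it was not called in either case.

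**Figure D5:**
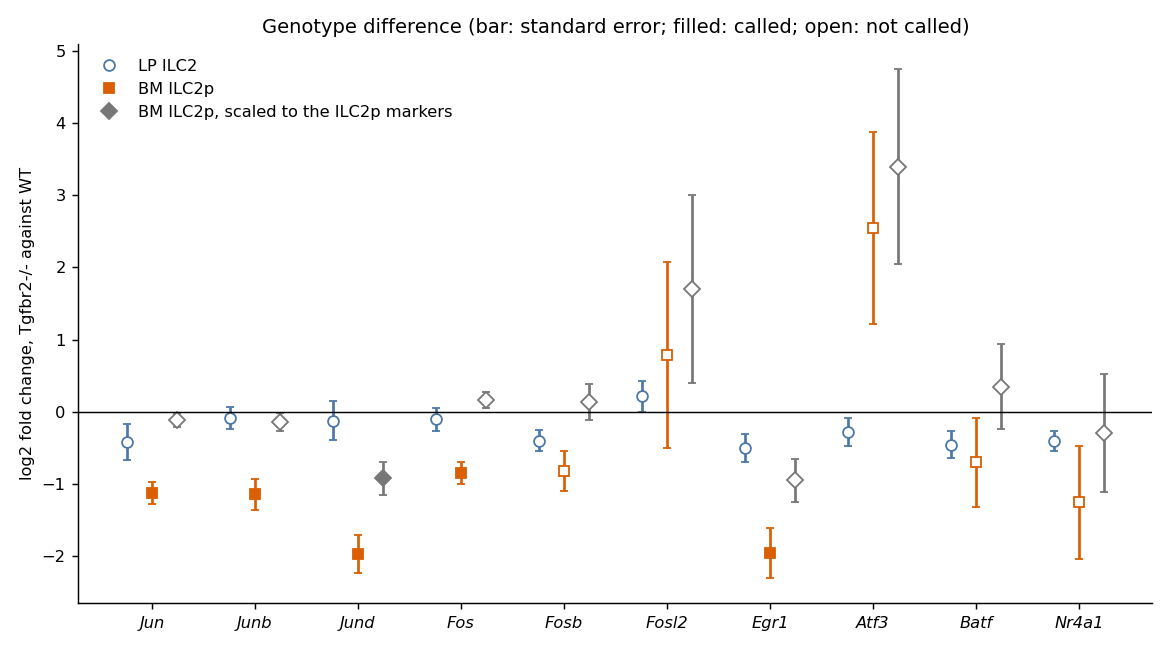
Log2 fold change of Tgfbr2-/- against WT (y axis) for each gene in LP ILC2s, in BM ILC2p and in BM ILC2p scaled to the 7 ILC2p markers, with bars for 1 standard error and filled symbols where the gene was called. With TMM, Jun, Junb, Jund, Fos and Egr1 are called lower in BM, and with the ILC2p markers as scale, which moves the median of all genes from -0.10 to 0.91, only Jund is.

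Whether the genotype difference itself differed between LP and BM was tested as an interaction over all 15 libraries, which called 0.992% of genes (127 of 12806, 0.469% above 0 and 0.523% below) with a median of 0.31 over all genes. Of the members only Jund was called (1.85 ± 0.39, edgeR adjusted p = 0.0552), the positive sign meaning a smaller fall in the LP. Junb (1.05, adjusted p = 0.125), Fos (0.73, adjusted p = 0.152) and Egr1 (1.44, adjusted p = 0.167) were not called, although all 3 and Jun were under scaling by library size or upper quartile and by limma on RPKM. Those settings also moved all genes, to medians of 0.60 and 0.66 for the scalings and 0.52 and 0.90 for limma. Junb (1.20), Fos (0.88) and Egr1 (1.60) were also called with at least 10 counts in every library, where the median was 0.03. Without a filter Junb (0.98), Fos (0.66) and Jun (0.62) were called, with the median at 0.32. Junb (1.29), Fos (0.87) and Egr1 (1.73) were called without the second BM Tgfbr2-/- library of experiment 2. Junb was also called without the second BM WT library of experiment 2 (1.18). The Jund call was lost when any one of 5 libraries was left out: the second LP WT library of either experiment, the second LP Tgfbr2-/- library of experiment 1, the LP Tgfbr2-/- library of experiment 2 or the first BM WT library of experiment 2 (1.59 to 1.80).

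The experiments themselves also differed in the LP, where 0.977% of genes were called (117 of 11981, 0.693% lower in experiment 2). The count was between 0 and 10 with 1 library left out, and 23 and 31 under library size and upper quartile scaling. Fosb was lower in experiment 2 in both genotypes, with a log2 difference of -0.97 ± 0.14 (edgeR adjusted p = 0.0727), and it was no longer called when any one of the 7 libraries was left out (-1.06 to -0.85). The call was also lost under library size (-0.77) and upper quartile scaling (-0.82), which moved the median of all genes to 0.20 and 0.16. Atf3 (-0.98, adjusted p = 0.102) and Junb (-0.66, adjusted p = 0.128) were not called, but both were by DESeq2 (-0.95 and -0.64) and without a filter (-0.97 and -0.65). In the same comparison 5 of 7 epithelial markers were called higher in experiment 2, and none of 12 heat shock genes was called by edgeR, all 12 below 0 with a median of -0.69. Agr2 was at 0 to 0.031 CPM in experiment 1 and 72.484 to 128.311 CPM in experiment 2, and Vil1 at 0 to 0.047 and 4.448 to 8.45 CPM. Such epithelial genes were tested through experiment 2, so their count is a description. The part of the epithelial or heat shock genes in the members' values was not tested. In the BM no gene was called between experiments by edgeR, with 288 genes at an unadjusted p under 0.05, while DESeq2 called 397.

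Other genes of the pathway were taken as lists. Among 32 further immediate early genes tested in the LP to BM comparison of WT cells, 7 were called higher in LP ILC2s and 3 lower, beside 1.65% and 0.711% of all genes. Only 27 of the 32 passed the filter on low values among the BM libraries alone, so the others, Arc, Egr2 and Nr4a3 among them, were tested through their level in the LP, and the count of 7 includes these 3. Arc, a cytoskeletal early gene, was at a mean of 40.1 CPM in LP WT and listed at 0 in the BM. Egr2 and Nr4a3, close relatives of Egr1 and Nr4a1, were at means of 14.4 and 67.7 CPM in LP WT and 0.0365 and 1.18 CPM in BM WT. Gadd45b, a stress gene, was at 1200.0 and 68.4 CPM (4.13, adjusted p = 0.000189). The 3 lower genes, named after their values were seen, were Ier5, an early response gene (-1.95), Klf2, a factor of lymphocyte quiescence and migration (-1.81), and Zfp36, which encodes an mRNA decay factor (-0.88). Of 18 other zipper proteins of the family, 1 was called, the cyclic AMP responsive modulator Crem (371.8 and 19.3 CPM, 4.27, adjusted p = 0.0777). Of 16 partners and target cytokines, of which 10 passed the filter in the BM libraries alone, Csf2, which encodes GM-CSF (3.53), and Irf4, the partner of Batf, were called higher. Irf4, at means of 15.4 CPM in LP WT and 0.0495 CPM in BM WT, was tested through its level in the LP. None of 24 MAP kinase cascade genes and none of 12 heat shock genes was called by edgeR.

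Between genotypes in the BM, 5 of 27 further immediate early genes were called lower and none higher, with a median of -0.51 against -0.10 for all genes. Of all genes, 0.866% were called lower and 2.61% higher. The BM Tgfbr2-/- libraries are those with 9 of 11 neutrophil and monocyte markers called higher and the ILC2p marker sum at 1748 to 2317 CPM beside 3361 to 4415 CPM in BM WT. The part of either in this list was not tested. Tnfaip3, an inhibitor of NF-κB, was at a mean of 2734 CPM in BM WT and 799 CPM in BM Tgfbr2-/- (-1.81, adjusted p = 0.00104). Rgs1, a brake on chemokine receptor signalling (-1.75), Klf6, a zinc finger factor (-1.30), and Dusp1, a MAP kinase phosphatase (-1.25), were also lower, as was Ppp1r15a, a regulator of the stress response (-1.11), named after its value was seen. None of 16 other zipper proteins, 24 MAP kinase genes, 10 partners and cytokines or 12 heat shock genes was called, with medians of -0.29, -0.55, 0.32 and -0.41. In the LP none of the genes of these lists was called between genotypes. T cell markers were called for none of 1 tested gene in the BM and none of 6 in the LP, B cell markers for none of 1 and none of 4, epithelial markers for none of 1 and none of 7, and erythroid markers for none of 1 gene each.

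The genes whose pattern was most like that of Fos were found by Pearson's r of log2 CPM over the 15 libraries after the mean of each cell type was subtracted, among 12806 genes. The 10 nearest outside the members were Gatsl3 (r = 0.923), Gata3 (0.919), Haghl (0.916), Zfp182 (0.909), 1700007L15Rik (0.908), Fam120c (0.900), B3galnt2 (0.898), Sbds (0.893), Uba3 (0.889) and Hars2 (0.888). Among the members Jun (0.889) and Egr1 (0.866) were nearest to Fos, followed by Junb (0.731), Jund (0.715) and Fosb (0.569), while Fosl2 (-0.487) and Atf3 (-0.681) ran the other way. The 10 nearest genes had an r with Fos of 0.915 to 0.989 over the 8 BM libraries, where genotypes separate, and of -0.381 (Hars2) to 0.899 (1700007L15Rik) over the 7 LP libraries. Among the members Junb had 0.943 over the BM and -0.504 over the LP libraries, and Jun 0.621 over the LP libraries. All of these points share libraries, depth and scaling, so the values are descriptions.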

How the data were processed

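RNA-seq of 15 libraries was used. According to the study's methods the authors aligned reads to mm9 with TopHat and allowed multiple hits a read, and the processing notes also name Bowtie2. The deposited files give, for each RefSeq gene, a read count and an RPKM value that the authors computed over the exons of the whole transcript. Whether strand was used is not given in the sources used here. Counts were unnormalized, and RPKM divided them by length and depth.

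Groups came from the labels. Counts were scaled by TMM over all 15 libraries for CPM and tested with edgeR 4.0.16 (R 4.3.3; quasi-likelihood, filterByExpr, Benjamini-Hochberg over all genes tested), with experiment as a term within a cell type. Genes were called at adjusted p under 0.1 and fold change over 1.5. DESeq2 1.42.0, limma 3.58.1 on log2(RPKM + 1) and log2(RPKM + 0.1), other scalings and filters, each experiment alone and leaving out each library were alternatives, and scaling to the summed ILC2p markers was chosen after seeing the data. Fold changes from limma are on the log2(RPKM + pseudocount) scale. Scripts were tested on simulated data. All 10 members were named in each comparison, and at most 4 genes of each other list: the called genes of largest fold change or, with none called, the most abundant. Any further gene of a list was named after its value was seen. Members and lists were chosen with earlier results of these data known. The lists were other zipper proteins, other immediate early genes, MAP kinase cascade, partners and cytokines, heat shock genes, and markers of ILC2s, ILC2p, T cells, B cells, neutrophils and monocytes, basophils and mast cells, epithelium and erythroid cells. Exact permutation tests between genotypes exchanged labels within experiments.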

Additional observations from a re-analysis of the deposited data

Results flagged for a closer look

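Among the 10 members, each group of 4 libraries was searched for a library far from the others, 30 groups in all, and 2 stood out, where chance gives about 1 in 20. Fosb was at 1639 CPM in the second BM WT library of experiment 1, beside 1337 to 1374 CPM in the other BM WT libraries. Batf was at 432.5 CPM in the first BM WT library of experiment 1, beside 116 to 138 CPM in the other BM WT libraries. That library also held the highest share of missing transcripts, 14.2% of the genes looked at. The part of missing transcripts in the Batf value was not tested.

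The interaction of genotype and cell type was called for Jund and for Tnfaip3, beside a median of 0.31 over all genes. The Jund call was lost without any one of 5 libraries. The interaction was 1.8460 on the log2 scale for Jund (edgeR adjusted p = 0.0552), with a genotype difference of -0.12 in the LP and -1.97 in the BM. For Tnfaip3 it was 1.5606 (edgeR adjusted p = 0.00436), with mean levels of 4830 and 4226 CPM in LP WT and LP Tgfbr2-/- and 2734 and 799 CPM in BM WT and BM Tgfbr2-/-. Between the BM groups 9 of 11 neutrophil and monocyte markers and 4 of 6 basophil and mast cell markers were called higher and 1 of 7 ILC2p markers lower, and their part in both interactions was not tested. Of the basophil and mast cell markers, Mcpt8, Fcer1a and Gata2 were tested mainly through the BM Tgfbr2-/- libraries.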

How the results depend on the processing

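DESeq2 called more genes than edgeR in each comparison: 338 between genotypes in the LP (0 with edgeR), 1347 between LP experiments (117), 1229 between genotypes in the BM (321), 397 between BM experiments (0), 950 between cell types in WT (302), 2529 in Tgfbr2-/- (1492) and 1518 for the interaction (127). Without a filter the counts were 3 between genotypes in the LP, 320 between LP experiments, 5 between BM experiments, 988 between cell types in Tgfbr2-/- and 259 for the interaction. With at least 10 counts in every library, which tests fewer genes, they were 199 between genotypes in the BM and 98 and 412 between cell types in WT and Tgfbr2-/-. With limma on log2(RPKM + 1) they were 507 between genotypes in the BM and 388 for the interaction, and on log2(RPKM + 0.1) 2378 between cell types in Tgfbr2-/- and 346 for the interaction. Library size and upper quartile scaling gave 23 and 31 between LP experiments and 196 and 203 for the interaction. ILC2p marker scaling gave 24 between LP experiments and 691 (629 higher, 62 lower) between genotypes in the BM. Each BM experiment alone gave 38 and 77. The cause of these shifts was not tested beyond the smaller numbers of genes or libraries.

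The labels do not say whether same-numbered libraries of the 2 genotypes were prepared as pairs. Their deviations had correlations of -0.054 in LP experiment 1 and -0.012 and -0.051 in BM experiments 1 and 2. With so few libraries such values cannot settle whether they were paired. With the replicate block, 175 genes were called between genotypes in the BM, among them the same 5 members, and 0 in the LP.

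Leaving out 1 library gave 0 to 0 calls between genotypes in the LP, 0 to 10 between LP experiments, 179 to 319 between genotypes in the BM, 0 to 0 between BM experiments, 156 to 370 and 596 to 1904 between cell types in WT and Tgfbr2-/- and 14 to 407 for the interaction. Between genotypes in the BM the count was 185 without the second WT library of experiment 1, 212 without the first Tgfbr2-/- library of experiment 1, and 179 and 185 without the first and second WT libraries of experiment 2.

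ILC2p marker scaling moved the median of all genes between BM genotypes from -0.10 to 0.91, with Fos at -0.75 relative to it under both scalings. The log2 fold changes with another sign than in the reported fit follow. Between LP genotypes these were Jun (0.13), Junb (0.10), Jund (0.17) and Fos (0.16) in experiment 2 alone, Junb under upper quartile scaling (0.0165) and Jund with limma (0.0057 and 0.0060). The median of all genes was 0.096 under upper quartile scaling and 0.097 and 0.136 with limma. Between BM genotypes they were Fos (0.16), Fosb (0.13), Batf (0.35) and Id2 (0.0493) under ILC2p marker scaling and Batf in experiment 2 alone (0.0852). Between cell types they were Fos in WT (0.0432) and Egr1 in Tgfbr2-/- (0.11) under upper quartile scaling. That scaling moved the median of all genes from -0.02 to 0.12 in WT and from -0.04 to 0.44 in Tgfbr2-/-, and both genes stayed below it. With 1 library left out, values between LP genotypes ran from -0.179 to 0.0163 for Junb, -0.291 to 0.2003 for Jund, -0.2588 to 0.0164 for Fos and -0.0073 to 0.3997 for Fosl2, those between cell types in WT from -0.0111 to 0.3419 for Junb and -0.0142 to 0.8826 for Batf, and the interaction of Batf from -0.3901 to 0.507.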
